A study of Mus musculus with 2 samples.

Results

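Cytochrome P450 enzymes are haem proteins that insert oxygen into fats, sterols, vitamins, hormones and foreign chemicals. The genes described here are all P450 genes on the array outside the Cyp1 family, taken by symbol: Cyp followed by a number and a letter, or Cyp51, leaving out Cyp1a1, Cyp1a2 and Cyp1b1. The rule gave 60 of the 12393 named genes, read by 73 probe sets of their own. A further 4 probe sets are annotated to more than 1 P450 gene and are given separately. The rule uses symbols and no signal.

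RNA came from the back skin of mice aged 10 days. In the transgenic group a constitutively active aryl hydrocarbon receptor (AhR) is made in keratinocytes, and its sample title names K14, the keratin 14 gene whose promoter drives expression in basal keratinocytes. The other group is wild-type littermates without the transgene. There was 1 array per group, and how many animals each array holds is not stated. No difference could therefore be tested, and every value below compares these 2 arrays. The samples are whole skin, in which fewer cells of a type and less RNA per cell cannot be told apart.

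AhR, a transcription factor switched on by dioxins and related ligands, pairs with ARNT and binds DNA at a short element with the core letters GCGTG. Its best-known targets are the Cyp1 genes. Most other P450 genes answer to other receptors: the xenobiotic receptors PXR and CAR for many Cyp2 and Cyp3 genes, PPARs for Cyp4a, retinoic acid receptors for Cyp26, the vitamin D receptor for Cyp24a1 and SREBP2 for Cyp51. In skin, P450 enzymes clear retinoic acid, activate and remove vitamin D, hydroxylate barrier lipids and make sterols.

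These promoters are shown as examples from the search for the AhR core among P450 genes, each chosen for the reason given below. Each is the 250 bases before the RefSeq start on GRCm38.p6, written 5′ to 3′ on the gene's strand, with GCGTG or its reverse complement CACGC in capitals. Cyp4b1 was the only P450 gene of this set that read at least 2-fold higher on the transgenic array. Among the genes with a RefSeq promoter, Cyp2c68 was the only one whose window held the longer form TNGCGTG, here on the opposite strand. Cyp46a1 held the most copies of GCGTG, and Cyp51 is the member that works in cholesterol synthesis.
Cyp4b1, chr4:115647722-115647971, - strand: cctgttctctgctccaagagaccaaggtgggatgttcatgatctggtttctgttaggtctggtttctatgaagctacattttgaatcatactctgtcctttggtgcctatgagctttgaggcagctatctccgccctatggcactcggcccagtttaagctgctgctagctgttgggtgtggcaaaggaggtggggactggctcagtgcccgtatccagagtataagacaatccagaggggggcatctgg
Cyp2c68, chr19:39741102-39741351, - strand: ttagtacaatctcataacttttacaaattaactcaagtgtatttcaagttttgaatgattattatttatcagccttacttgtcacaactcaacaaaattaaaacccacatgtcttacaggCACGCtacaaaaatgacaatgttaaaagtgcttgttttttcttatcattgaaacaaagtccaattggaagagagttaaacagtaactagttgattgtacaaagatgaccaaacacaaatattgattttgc
Cyp46a1, chr12:108334066-108334315, + strand: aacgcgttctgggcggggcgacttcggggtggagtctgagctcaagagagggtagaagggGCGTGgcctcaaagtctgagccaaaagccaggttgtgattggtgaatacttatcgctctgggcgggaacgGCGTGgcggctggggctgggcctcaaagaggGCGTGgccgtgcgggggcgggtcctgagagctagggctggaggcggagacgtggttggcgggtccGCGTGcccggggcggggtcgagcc
Cyp51, chr5:4104698-4104947, - strand: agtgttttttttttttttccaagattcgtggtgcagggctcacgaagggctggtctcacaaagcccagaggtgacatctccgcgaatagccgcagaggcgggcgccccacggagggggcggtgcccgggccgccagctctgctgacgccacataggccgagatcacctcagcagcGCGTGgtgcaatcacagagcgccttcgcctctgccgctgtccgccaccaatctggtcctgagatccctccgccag

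The Cyp4b1 promoter window held no GCGTG on either strand. The Cyp46a1 window held 4, whose first bases lay 190, 120, 89 and 24 bases before the start. Its gene read 44.0 on the transgenic and 45.9 on the wild-type array. The Cyp51 window held 1, at 75 bases before the start, and the Cyp2c68 window 1, at 130 bases. RefSeq promoters were at hand for 43 of the 60 genes, and 9 of these 43 had GCGTG in at least 1 promoter. Cyp2g1, described below, was not among the 43, so its promoter was not searched. Counted over promoters, 10 of 50 (20%) held it, against 28.2% of 32851 promoters of all genes cut to the same length. For measured members alone it was 6 of 21 promoters (28.6%), close to the share of all. Some of these windows overlap, as 1 gene can have several starts. TNGCGTG, which contains GCGTG, was found in 1 of the 50 promoters and in 4.10% of all. Both Cyp1a1 and Cyp1b1 had 1 copy of GCGTG in this window and no TNGCGTG, and Cyp1a2 had 0 copies of either. A match describes these letters only, and distal elements lie outside the window.

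Across the array 1 P450 gene outside Cyp1 read at least 2-fold higher with the transgene, Cyp4b1, and 1 read at least 2-fold lower, Cyp2g1. Of the 60 genes, 29 (48.3%) were measured, meaning that the brightest probe set of the gene lay above a signal of 34.7, the floor, on at least 1 array. Among all named genes 71.8% were measured. The 1 higher of 29 measured members stands beside 2.27% of 8894 measured genes of the whole array, and the 1 lower beside 1.09%. At these rates the counts of members are close to the background. The other 27 measured members had log2 ratios, transgenic over wild type, between -0.40 and 0.62 with signals raised to the floor. For the members above the floor on 1 array only the ratio is a bound: Cyp2c55 stood at -0.25 here and at -0.93 with a floor at the 20th percentile. The median over the 29 was 0.10, against -0.05 over all measured genes. Where a pair of signals is given without labels, the transgenic array comes first and the wild-type array second.

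**Figure D1:**
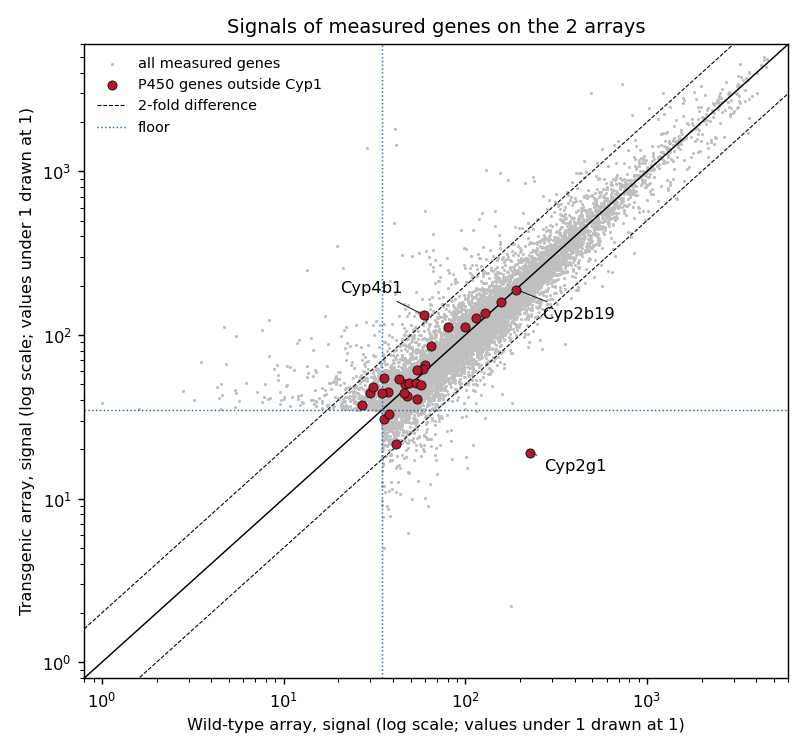
Signal on the wild-type array (x axis) against the transgenic array (y axis), both on log scales, for all 8894 measured genes (grey) and the 29 measured P450 genes outside Cyp1 (red). Solid line, equal signals; dashed lines, 2-fold differences; dotted lines, the floor of 34.7. Cyp2g1 (19 on transgenic, 225.6 on wild type) and Cyp4b1 (132.7 on transgenic, 58.9 on wild type) stand outside the dashed lines, and the other P450 genes lie between them, Cyp2c55 (21.7 on transgenic, 41.3 on wild type) close to the lower one.

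These are dim genes in skin. Measured members had a median wild-type signal of 53.7, against 105.5 for all measured genes, and 5 of the 29 read over 100 on the wild-type array (17.2%, against 52.2% of all measured genes). The brightest were Cyp2g1 at 225.6, Cyp2b19 at 191.2, Cyp2s1 at 156.3, Cyp2c29 at 128.3 and Cyp51 at 114.6. Signals are not set against each other as transcript amounts, since probe sets differ in how strongly they bind. Above the floor on both arrays were 22 members, of which 20 lay within 1.5-fold (90.9%, against 87.9% over the array). The exceptions were Cyp4b1 and Cyp2c39. Within these arrays, the log2 ratios of the 2 brightest probe sets of a gene differed with an SD of 0.36 over 2535 genes, and 95% of the differences were under 0.73 in size. That spread holds no variation between animals.

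Cyp2g1 encodes a steroid hydroxylase best known from the olfactory mucosa. It read 19 on the transgenic and 225.6 on the wild-type array. The transgenic signal is below the floor, so the difference is a bound: at least 6.50-fold lower, a log2 ratio of at most -2.70. Its wild-type signal was the highest of the 29 measured members. It was also the highest among the 487 genes above the floor on the wild-type array only, where the next gene read 179.2. Cyp2g1 has 1 probe set, whose name carries no mark of cross-hybridisation, and no second probe set was there to compare. It stayed past 2-fold under each of the 11 alternative settings tried. Some of these could not move its ratio: the choices among probe sets, with only 1 here, and the 1.5-fold and 3-fold limits. The values as deposited gave the same ratio as well, since their trimmed means were already equal.

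Cyp2g1 lies in a run of Cyp2 genes that, in the order of the mouse reference, goes from Cyp2s1 to Cyp2f2. The reference lists 16 Cyp2 genes and pseudogenes there, of which 8 had a probe set of their own and 5 were measured. The nearest P450 neighbour on one side, Cyp2b19, read 189.2 and 191.2. On the other side Cyp2a5 is read only by a probe set shared with Cyp2a4, at 6.0 and 1.8, both below the floor. At the ends of the run, Cyp2s1 read 158.3 and 156.3, and Cyp2f2 48.3 and 31.0. Among the 5 measured genes of the run, Cyp2g1 alone was 2-fold or more lower.

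Cyp4b1, a hydroxylase of short and medium fatty acids and some foreign compounds, read 132.7 on the transgenic and 58.9 on the wild-type array. This is 2.25-fold higher, a log2 ratio of 1.17. Among 7972 genes over the floor on each array, 108 had a higher ratio. It too has 1 unmarked probe set. With the floor at the 60th percentile, or with 16 added to every signal and no floor, it was not counted as 2-fold higher. Its log2 ratio was at least 0.91 under that floor, since the wild-type signal lay below it, and 0.99 with 16 added.

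Signals of cell type markers also differed between these arrays. All 10 macrophage markers listed were higher on the transgenic array, 7 by at least 2-fold, and their summed signal was 2243 against 780. Of 15 hair markers 14 were lower, with sums of 27366 and 33205, and none was counted as 2-fold lower. Lef1 (17.7 and 45.8) was below the floor on the transgenic array, so its log2 ratio of at most -0.40 is a bound. All 6 melanocyte markers were lower, 3 by at least 2-fold, with sums of 1366 and 2650. Of 6 sebocyte markers 5 were lower, 2 of them by at least 2-fold, and 1, Krt79 (2434.6 and 1028), was at least 2-fold higher. The sums of 3523 and 3078 run opposite to most of these markers because they include Krt79. No listed marker read 0 on both arrays. The part of these markers in the values of Cyp4b1 and Cyp2g1 was not tested. All 7 basal keratinocyte markers were measured, 1 at least 2-fold higher (Itgb4) and 1 at least 2-fold lower (Krt15), with sums of 7762 and 5767. Of 9 suprabasal markers on the array 8 were measured, 3 at least 2-fold higher and 1, Ivl, at least 2-fold lower, with sums of 9369 and 4298. Krt2 was below the floor on both arrays and Casp14 on the wild-type array. Of 5 mast cell markers 2 were at least 2-fold higher, with sums of 882 and 501. Of 7 measured skeletal muscle markers 6 were lower, 1 by at least 2-fold, with sums of 3835 and 4616. Fibroblast markers had 1 of 6 at least 2-fold higher, and none of the 5 endothelial and 4 measured adipocyte markers was counted as 2-fold different. Tek, an endothelial marker, was below the floor on the transgenic array (33.7 and 50.3), so its ratio is a bound. Of 5 liver genes listed only Alb was above the floor, at 45.7 and 54.9.

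**Figure D2:**
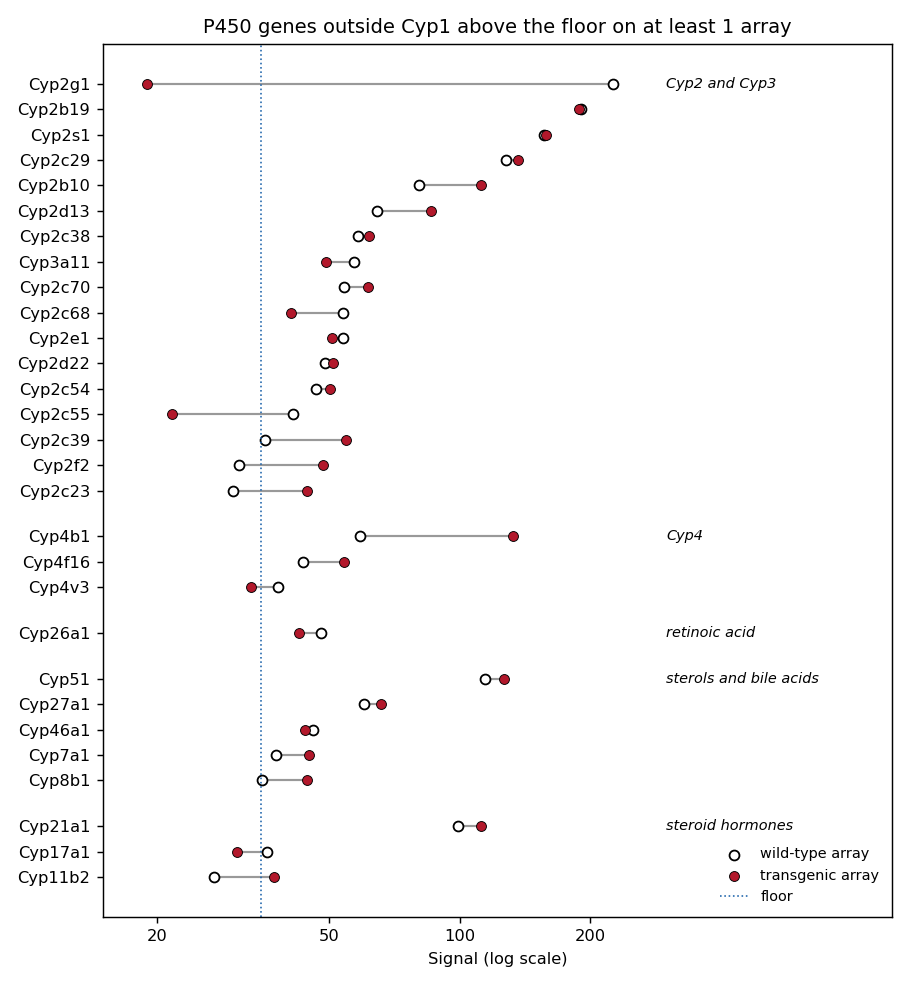
Signal (log scale) of the 29 measured P450 genes on the wild-type array (open circles) and the transgenic array (red), grouped by role, with the floor of 34.7 dotted. The pair of Cyp2g1 is the widest and runs below the floor on the transgenic array, Cyp4b1 runs the other way, and the pairs of Cyp2b19 and Cyp2s1 nearly coincide.

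The Cyp2 and Cyp3 genes, which act on drugs, pollutants and fatty acids, made up 32 of the 60 members outside the Cyp2j subfamily. Of these 17 were measured, none was counted as at least 2-fold higher and 1, Cyp2g1, was lower by that much. Their median log2 ratio was 0.09. Cyp2b19, an epoxygenase of arachidonic acid made by keratinocytes, had a log2 ratio of -0.02. Cyp2s1 is an epithelial P450 known to be induced by dioxin through AhR. It had a log2 ratio of 0.02, so the 2 arrays read it alike while Cyp1a1 read 1802 and 40.8 on the same arrays.

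Cyp2b10, the classic target of CAR in liver, had 3 probe sets above the floor that did not agree on a direction. The brightest, marked for possible cross-hybridisation, read 112.0 on the transgenic and 80.5 on the wild-type array (log2 ratio 0.48). The unmarked one read 80.6 and 85.0 (-0.08), and the third read 57.9 and 71.8 (-0.31). No direction is given for this gene.

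The Cyp2c subfamily, epoxygenases and hydroxylases of the liver and other organs, had 8 of 11 members measured. Cyp2c29 read 136.1 on the transgenic and 128.3 on the wild-type array. Cyp2c38 read 61.9 and 58.3, Cyp2c54 50.2 and 46.6, and Cyp2c70, which makes muricholic acids in mouse liver, 61.5 and 54.1. The log2 ratios of these 4 lay between 0.09 and 0.18. Cyp2c39, a retinoic acid hydroxylase, read 54.6 and 35.6, with a log2 ratio of 0.62. This was the highest among the Cyp2c genes above the floor on both arrays, but the wild-type signal of Cyp2c39 lay close to the floor. Cyp2c68 read 40.8 and 53.9 (-0.40). Cyp2c23 was above the floor on the transgenic array only (44.3 and 30, at least 0.35), and Cyp2c55 on the wild-type array only (21.7 and 41.3, at most -0.25). None of the 8 was counted as 2-fold different, though the bounds of Cyp2c23 and Cyp2c55 leave the size of their difference unknown. The Cyp2c genes are close relatives, and whether their probes read 1 gene each was not checked.

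Among the remaining measured genes of this group, Cyp2f2, known for activating naphthalene in the lung, was above the floor on the transgenic array only (at least 0.48). Cyp2d13 read 85.7 and 64.6 (0.41), but its other probe set was below the floor on both arrays at 7.4 and 12.9. Cyp2d22 read 50.9 and 48.9 (0.06). Cyp2e1, which oxidises ethanol, read 50.6 and 53.7 (-0.09). Cyp3a11, the main PXR target of mouse liver, read 49.2 and 56.9 (-0.21). None of these was counted as 2-fold different.

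Cyp4 enzymes hydroxylate fatty acids at the end of the chain. Of 10 members on the array 3 were measured. Besides Cyp4b1, Cyp4f16 read 54.1 on the transgenic and 43.4 on the wild-type array (log2 ratio 0.32). A probe set annotated to both Cyp4f16 and Cyp4f37 read 37.7 and 27.2, above the floor on the transgenic array only. Cyp4v3, a hydroxylase of medium-chain fatty acids, read 32.9 and 38.1 (at most -0.13) by a probe set marked for possible cross-hybridisation. Its unmarked probe set read 28.2 and 25.4, below the floor on both arrays. Cyp4a12a, Cyp4a14, Cyp4a31, Cyp4f13, Cyp4f14, Cyp4f15 and Cyp4f18 were below the floor on both arrays, at most at 21.3 on the transgenic and 20.6 on the wild-type array. Of the Cyp4 genes on the chromosome of Cyp4b1, 4 had a probe set of their own, and Cyp4b1 was the 1 measured.

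Among sterol and bile acid enzymes 5 of 7 were measured and none reached 2-fold. Cyp51, the lanosterol demethylase of cholesterol synthesis, read 126.4 on the transgenic and 114.6 on the wild-type array by its brightest probe set (log2 ratio 0.14). A second probe set read 41.8 and 47.9 (-0.20), so the direction of Cyp51 is not settled. Cyp27a1, the sterol 27-hydroxylase, read 65.9 and 60.2 (0.13). Cyp46a1, the cholesterol 24-hydroxylase of brain, had a log2 ratio of -0.06. Cyp7a1 and Cyp8b1, liver enzymes of bile acid synthesis, read 44.9 and 37.6 (0.26) and 44.3 and 35.0 (0.34), close to the floor. Cyp7b1 and Cyp39a1, which hydroxylate oxysterols, were below it.

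Of the steroid hormone enzymes, Cyp21a1, the 21-hydroxylase of corticosteroid synthesis, was the brightest, at 112.1 and 99.1 (log2 ratio 0.18). Another Cyp21a1 probe set read 31 and 22, under the floor. Cyp17a1 (30.6 and 35.9) and Cyp11b2, the aldosterone synthase (37.3 and 27.1), were each above the floor on 1 array by a little. Cyp11a1, which opens steroid synthesis from cholesterol, was below it at 2.7 and 3.3.

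Cyp26a1, which clears retinoic acid, read 42.5 on the transgenic and 47.8 on the wild-type array (log2 ratio -0.17). Neither vitamin D enzyme reached the floor: Cyp27b1, which makes the active hormone, read 7.9 and 6.6, and Cyp24a1, which removes it, 9.1 and 14.3. The 4 Cyp2j genes, epoxygenases of arachidonic acid (Cyp2j5, Cyp2j6, Cyp2j9 and Cyp2j13), were also below the floor on both arrays.

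The 31 members below the floor had medians of 9.1 on the transgenic and 7.3 on the wild-type array, and the highest signals were 27.7 and 33.1, both of Cyp39a1. Besides those named they were Cyp2a12, Cyp2b9, Cyp2b13, Cyp2c37, Cyp2c50, Cyp2c65, Cyp2d9, Cyp2d10, Cyp2d12, Cyp2d26, Cyp2d34, Cyp3a13, Cyp3a16, Cyp3a25 and Cyp3a44. Below the floor no ratio is given, and such a signal does not show that a transcript is absent. The probe sets shared by Cyp3a41a and Cyp3a41b and by Cyp4a10 and Cyp4a31 were below it too, at 0.3 and 0.8 and at 24.5 and 16.9.

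Of the genes listed as serving P450 enzymes, those measured mostly lay near equality. P450 enzymes take electrons from reductases, ferredoxin and cytochrome b5. Of 9 genes listed for this supply, 7 had a probe set of their own and were measured. The listed reductase genes Por and Fdxr had none and were not read. None of the 7 reached 2-fold, and the median log2 ratio was 0.16. Cyb5a, cytochrome b5, read 775.6 on the transgenic and 595.9 on the wild-type array (0.38), and Fdx1, the ferredoxin of mitochondrial P450s, 174.2 and 147.0 (0.24). Of 11 measured genes of haem synthesis and breakdown none reached 2-fold, with a median of -0.09. Alas1, the first and rate-limiting enzyme of haem synthesis, read 102.2 and 92.4 (0.15). The next enzyme, Alad, read 124.4 and 213.6 (-0.78), and Hmox1, which breaks haem down, 179.8 and 259.6 (-0.53). On the other side, Blvrb, a biliverdin reductase, read 60.9 and 36.8 (0.73), and Hmox2 219.1 and 175.9 (0.32), and 5 of the 11 genes lay above 0.

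**Figure D3:**
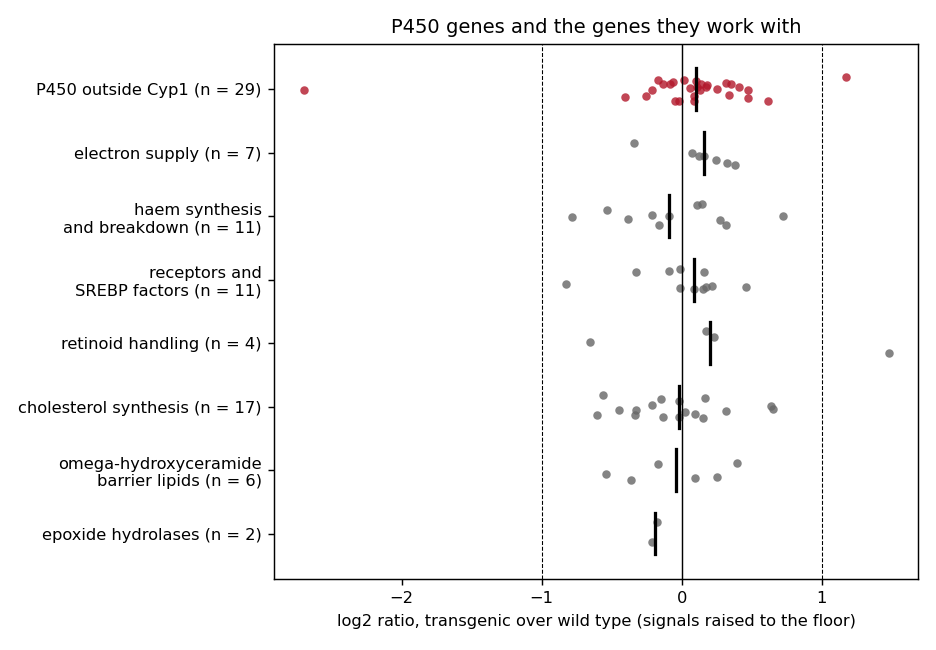
Log2 ratio, transgenic array over wild-type array (x axis, signals raised to the floor) for the measured P450 genes outside Cyp1 (red) and for 7 lists of genes they work with (grey), each point 1 gene and each bar a median. Dashed lines mark 2-fold. Cyp2g1 and Cyp4b1 lie outside them among P450 genes, and Crabp2 at 1.48 among the other lists.

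Of 18 listed receptors and SREBP factors on the array 11 were measured and none was counted as 2-fold different, with a median of 0.09. The genes of PXR (Nr1i2, 19.2 and 17.6), CAR (Nr1i3, 4.9 and 4.0) and PPAR alpha (Ppara, 4.2 and 3.6) were below the floor on both arrays. Vdr, the vitamin D receptor, read 200.8 and 202.4. Rarb, a retinoic acid receptor, read 41.0 and 72.6 (-0.82), and Rarg, the main one of epidermis, 337.3 and 298.5 (0.18).

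Among retinoid handling genes, 4 of 8 on the array were measured. Crabp2, which carries retinoic acid to its receptor, read 302.3 and 108.1 and was 2.80-fold higher. Dhrs3, which turns retinal back to retinol, read 99.5 and 156.9 (-0.66). Cyp26a1 and Cyp2c39, the retinoic acid hydroxylases among the members, stood at -0.17 and 0.62.

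Of 17 measured cholesterol synthesis genes beside Cyp51 none reached 2-fold, with a median of -0.02 and 7 above 0. Ebp, a sterol isomerase, was highest (307.8 and 196.0, log2 ratio 0.65), and Lss, which makes the lanosterol used by Cyp51, was lowest (55.6 and 84.4, -0.60). Of 6 measured genes for omega-hydroxyceramides and their processing in the skin barrier none was counted as 2-fold different, with a median of -0.04. Alox12b, a lipoxygenase of these ceramides, read 41.4 on the transgenic and 4.4 on the wild-type array, a bound of at least 0.25. Elovl4, the elongase of ultra-long fatty acids, read 475.1 and 610.6 (-0.36). The epoxide hydrolase genes Ephx1 and Ephx2, which open the epoxides that P450 enzymes form, had log2 ratios of -0.17 and -0.21. Of the P450 genes with other names, Tbxas1, the thromboxane synthase, read 37.7 and 25.3, and Ptgis, the prostacyclin synthase, 8.0 and 5.2.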

How the data were processed

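Biotin-labelled total RNA was hybridised to 1-colour arrays, per the labels. The deposited values are linear signal intensities, never negative, 1 per probe set. The authors' software and scaling are not given in the sources used here, but the 2% trimmed means were both 100.03. Signals were scaled to equal trimmed means, raised to a floor at the 40th percentile (34.7) and compared as log2 ratios. Each gene was read by its brightest probe set over both arrays. Genes came from the platform annotation of 2016, with symbols updated through GRCm38.p6, which changed 0 member symbols.

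A 2-fold difference was counted with no test, since 1 array per group leaves no replicate error. The number of arrays limits the precision. Every measured member is named, as are the other members without ratios. From the pathway lists, examples were named. The members, the 8 pathway lists and the 12 marker lists were chosen with earlier results of these data known. The calculation was tested on simulated data, with differences planted only in genes well above the floor on both arrays. That test did not cover planted differences in genes near or below the floor, where most members lie. Python 3.11.15, pandas 2.3.3 and statsmodels 0.14.6 were used.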

Additional observations from a re-analysis of the deposited data

How the results depend on the processing

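The alternatives were the values as deposited, median centring, quantile normalization, lowess centring (span 0.4), 16 added to every signal in place of a floor, a floor at the 20th or at the 60th percentile, the mean over probe sets, unsuffixed probe sets only, and limits of 1.5-fold and 3-fold. The number of P450 genes at least 2-fold lower was 1, Cyp2g1, under all 11, with a log2 ratio from -3.57 to -1.67. The share of all measured genes counted as lower ran from 0.10% at 3-fold to 6.38% at 1.5-fold. For Cyp2g1, the deposited values, the probe set choices and the fold limits left the ratio unchanged. The number at least 2-fold higher was 2 of 44 measured members with the floor at the 20th percentile (Cyp4b1 and Cyp7b1). The share over all measured genes was 3.61% there. With the floor at the 60th percentile it was 0 of 9, against 1.94% of all. With the pseudocount it was 0 of 29, against 2.39%. At 1.5-fold it was 2 of 29 (Cyp4b1 and Cyp2c39), against 6.80%, and at 3-fold 0 of 29, against 0.69%. The members' median ran from 0.03 to 0.17. Of 29 members, 26 kept their sign under the alternatives that gave them a value, and Cyp2b10, Cyp2b19 and Cyp51 did not. Cyp2b10 was at 0.03 over its probe sets and at -0.08 by the unsuffixed one. Cyp2c55 moved from -0.25 to -0.93 with the lower floor. Low signal limits what can be measured: under a floor at the 60th percentile 9 members were measured, and under the 20th 44. No paired analysis was possible because each group holds 1 array.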

Other observations

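Cyp7b1, which hydroxylates oxysterols and neurosteroids, was below the floor on both arrays, but its probe sets both read more on the transgenic array: 27.1 against 7.3, and 20 against 11.4. With the floor at the 20th percentile it was measured, at a log2 ratio of at least 1.19. This gene was singled out after its values were seen.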
